A study of Mus musculus with 17 samples.

Results

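The genes described here belong to the families that dock, prime and fuse secretory granules with the plasma membrane, and include relatives that act in fusion at internal membranes. They were chosen by symbol, as the synaptotagmins, synaptotagmin-like proteins, syntaxins, syntaxin-binding proteins, vesicle-associated membrane proteins, Snap23, Snap25, Snap29 and Snap47, the Rab3 and Rab27 proteins, the complexins and the Unc13 proteins that had a unique molecular identifier (UMI, 1 captured transcript) in at least 1% of all cells. Of 70 symbols that matched, 60 met that rule, out of 15484 rows that met it and 40824 rows in the whole table. Stx11 lay just inside the limit with 37 cells (1.23%), and Stxbp3b, with 28 cells (0.934%), lay just outside it. Other symbols below the limit were Syt17 with 16 cells, Cplx3 with 10, Unc13c with 7, Cplx1 with 4, Syt8 with 2, and Cplx4, Syt10 and Vamp7 with none.

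Single pancreatic cells of mice were profiled by modified STRT-seq, which tags each captured transcript with a UMI, in 2999 cells from 17 libraries and 12 groups. All groups carried Ngn3-Cre with a Rosa-RFP reporter, an allele pair that marks cells descended from endocrine progenitors, and RFP-positive cells were sorted (the protocol also speaks of Ins1-RFP cells). Streptozotocin (STZ), a toxin taken up by beta cells, was given to 2-month-old males as 1 intraperitoneal dose of 200 mg/kg, and the groups STZ_D6, STZ_D12, STZ_D30, STZ_D42, STZ_M2, STZ_M5 and STZ_M9 were collected 6, 12, 30 and 42 days and 2, 5 and 9 months later, all with insulin implants (discontinuous over the last 2 months in STZ_M9). The design text gives STZ_D6 a second time as day 1. STZ_M2_NoIns had STZ and no implant, the Control group of age-matched males had citrate buffer, and P3, P12 and P21 were untreated pups of postnatal day 3, 12 and 21. The study set out to describe endocrine cells after STZ, with the pups as a scale of beta-cell maturation. Control had 3 libraries, STZ_D12, P12 and STZ_M2_NoIns had 2 each and the other groups had 1. Nothing states that libraries of a group came from separate animals, so p-values measure the spread between these libraries, which may be technical.

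Fusion is driven by SNARE proteins: a vesicle SNARE of the VAMP family zips together with target membrane SNAREs, a syntaxin and a SNAP protein, into a bundle that pulls the membranes together. Sec1/Munc18 proteins (the Stxbp genes) hold and guide syntaxins, Unc13 proteins prime the complex, complexins clamp it, and synaptotagmins release the clamp when calcium enters. Rab3 and Rab27 sit on the granule surface and recruit effectors, among them the synaptotagmin-like proteins, that tether granules at the membrane. Endocrine islet cells release hormone granules this way on a calcium rise, and acinar cells use related parts to empty zymogen granules of digestive enzymes into ducts.

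The median cell had 61193 UMIs and the lowest 7751, and libraries held 1420536 to 26298456 UMIs in 22 to 295 cells. No pair of cells had the same counts. Cells were grouped by genes other than the 60 members and the islet hormones, and the clusters were named from marker genes. Beta cells numbered 1015, acinar cells 763, alpha cells 590, delta cells 245 and pancreatic polypeptide (PP) cells 170, with 117 ductal, 45 immune and 54 unnamed cells. Beta cells of P3 formed a cluster of their own with 132 cells, 130 of them from P3. Hormones of other classes made up more than 1000 of 100000 UMIs in 25.6% of beta, 78.3% of alpha, 50% of PP and all delta cells. In delta sums of at least 5 cells, Ppy and Pyy held 50618 to 88621 per 1000000 UMIs. The first P12 library, which had no PP cell, held 57463. How much of this the delta cells express themselves was not tested. Low levels of a member in a class are read against the level in classes that lack it. Levels below are UMIs summed over the cells of a class in a library, per 1000000 UMIs and scaled by edgeR's trimmed mean of M-values (CPM), and differences are on the log2 scale with a standard error. In such sums, fewer cells with a transcript and fewer copies per cell cannot be told apart.

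The promoters of 2 members are shown whose transcripts were nearly limited to 1 islet class, beta cells for Sytl4 and delta cells for Syt6. They are 300 bases from RefSeq on GRCm38.p6, 5′ to 3′ along the gene, from 250 bases before the annotated start, and capitals mark the 50 bases from the start onward. Sytl4 encodes granuphilin, a Rab27 effector on insulin granules, and Syt6 encodes a synaptotagmin. The Sytl4 window is at chrX:133981763-133982062 on the minus strand with 54.7% G and C, and that of Syt6, the first of 3 for the gene, is at chr3:103574995-103575294 on the plus strand with 61% G and C.
Sytl4: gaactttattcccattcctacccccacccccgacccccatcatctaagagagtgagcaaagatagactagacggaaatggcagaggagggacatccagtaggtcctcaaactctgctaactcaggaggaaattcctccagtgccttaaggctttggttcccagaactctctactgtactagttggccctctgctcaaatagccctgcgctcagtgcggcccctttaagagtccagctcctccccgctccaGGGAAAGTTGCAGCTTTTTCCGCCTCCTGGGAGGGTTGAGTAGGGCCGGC
Syt6: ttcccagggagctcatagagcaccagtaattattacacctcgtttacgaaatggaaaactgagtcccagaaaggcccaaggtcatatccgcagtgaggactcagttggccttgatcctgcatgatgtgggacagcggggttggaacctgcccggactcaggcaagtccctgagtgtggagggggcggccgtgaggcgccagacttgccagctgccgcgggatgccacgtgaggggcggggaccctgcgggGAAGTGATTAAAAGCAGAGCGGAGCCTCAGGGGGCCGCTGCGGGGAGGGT
Of the 60 members, 47 were in the promoter table, with a median of 61.3% G and C and 19 CG pairs against 52.7% and 7 for 27025 genes. Among 6 motifs searched on both strands, the NeuroD-type E-box CAGATG was in 3 of the 47 windows (6.38%, against 19.2% of all genes), the homeodomain core TAATTA in 1 (2.13% against 6.12%), the forkhead core TGTTTAC in 2 (4.26% against 4.05%) and the nuclear receptor motif CAAGGTCA in 2 (4.26% against 1.76%). Neither the cyclic AMP response element TGACGTCA nor the RE1 core was found in a member's window, against 2.03% and 0.0407% of all genes. The Syt6 window above holds both TAATTA and CAAGGTCA, without overlap. A match is a run of letters only.

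The first question was how endocrine and acinar cells differ in these genes. Most synaptotagmins (10 of 12 tested) and the SNAREs Snap25, Vamp2 and Stx1a were higher in endocrine cells, and Rab27b, Rab3d and the synaptotagmin Syt3 were higher in acinar cells. Over 12 libraries with both, 44 of 55 tested members differed (80%, 30 higher and 14 lower in endocrine cells) by edgeR's quasi-likelihood test with Benjamini-Hochberg adjustment, where 66.5% of all tested genes did (32.2% higher, 34.4% lower). The endocrine value is the mean of the beta, alpha, delta and PP classes, each weighted equally. The median difference of the members was 0.64, against 0.00 for all genes.

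The synaptotagmins, a family of calcium sensors and of relatives that do not bind calcium, had 10 of 12 tested members higher, 1 lower and a median of 2.85. Syt13, an atypical synaptotagmin that does not bind calcium, had 8.57 CPM at the lowest, 31.9 at the median and 186 at the highest of 12 acinar libraries, against 357, 450 and 576 in 15 beta libraries. The ranges did not meet, and the difference was 3.17 ± 0.20 (adjusted p = 1.39e-20, edgeR's quasi-likelihood test). The others that were higher were Syt9 by 3.11, Syt2 by 3.08, Syt14 by 3.07, Syt5 by 2.98, Syt16 by 2.86, Syt4 by 2.85, Syt11 by 2.19, Syt7 by 2.02 and Syt1 by 1.99 on the log2 scale. Syt7, a high-affinity sensor of insulin and glucagon release, and Syt9, a sensor of insulin granules, are among them. With trimmed-mean scaling, Syt3 was lower in endocrine cells by -1.75 ± 0.29.

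Snap25, the plasma membrane SNARE of neurons and islet cells, had an acinar lowest, median and highest of 5.46, 14.0 and 63.7 CPM, and 110, 161 and 239 CPM in beta cells. Every beta library was above every acinar one, and the difference was 3.16 ± 0.19 (adjusted p = 2.36e-21, edgeR's quasi-likelihood test). Vamp2, its granule partner, was higher by 1.78 ± 0.12, and Stx1a, the syntaxin of that complex, by 1.04 ± 0.31. Cplx2, the main complexin of islets, was higher by 3.03 ± 0.17 (13.6, 29.8 and 165 CPM in acinar cells against 165, 271 and 375 in beta cells), and the priming factor Unc13a by 2.25 ± 0.27. Among target membrane SNAREs as a whole, 5 of 16 were higher and 4 lower, the higher ones besides Snap25 and Stx1a being Snap47, Stx7 and Stx12 by 1.04, 0.89 and 0.36. Vamp4 and Vamp3 were higher by 0.47 and 0.28. In the tethering group 6 of 11 were higher, Rab3b by 3.10, Sytl3 by 3.04, Rab3c by 2.35, Sytl5 by 2.12, Rab3a by 1.44 and Rab27a by 0.62, and among syntaxin binders Stxbp4, Stxbp5l and Stxbp3a were higher by 2.09, 2.04 and 0.54.

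With trimmed-mean scaling, acinar cells had the larger levels of 2 granule Rabs. Rab27b had 36.9, 74.3 and 91.1 CPM at the lowest, median and highest acinar library, against 0, 1.19 and 7.32 in beta, 0, 7.82 and 23.5 in alpha and 1.09, 15.5 and 42.1 in PP cells. All beta and alpha libraries lay below the acinar range, while the highest PP library reached into it. Rab3d, the Rab of zymogen granules, had 208, 369 and 535 CPM in acinar and 68.1, 125 and 169 in beta libraries. These ranges did not meet either. Endocrine cells were lower by -3.73 ± 0.29 for Rab27b (13.3-fold) and by -2.86 ± 0.12 for Rab3d (7.25-fold), with adjusted p = 1.73e-16 and 3.5e-28 in edgeR's quasi-likelihood test.

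Other members were lower in endocrine cells, at -0.98 ± 0.10 for Vamp8, the zymogen granule VAMP, -1.03 ± 0.20 for Snap23, -0.47 ± 0.13 for Stxbp2 (Munc18-2) and -1.89 ± 0.21 for the Rab27 effector Sytl1. Stxbp5, Snap29, Unc13b, Stxbp6, Stx18, Stx8 and Sytl4 were also lower, by -1.42, -1.36, -1.23, -0.49, -0.38, -0.33 and -1.07. The syntaxins Stx2 (0.64 ± 0.51), Stx3 (0.25 ± 0.20) and Stx4a (-0.25 ± 0.25) were not called. The Sytl4 value averages a beta class that has much of it with 3 classes that have little. These directions depended on the scaling. With library totals taken without islet hormones and with no trimmed-mean scaling, the median of all genes moved from 0.00 to 1.67 and the share of calls that were higher from 48.3% to 92.1%. The members were then 45 higher and 2 lower, Rab27b at -2.13 and Rab3d at -1.18, while Syt3 at -0.06 and Sytl1 at -0.24 were no longer called and Vamp8, Snap23, Stxbp2, Unc13b and Sytl4 turned to 0.75, 0.64, 1.21, 0.41 and 0.59. In plain UMIs per 1000000 without that scaling, Rab3d was at 159 (95% Poisson interval 157 to 161) in acinar and 145 (142 to 148) in beta cells, and Vamp8 at 115 (113 to 117) and 176 (172 to 179), intervals that cover counting error only.

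The P3 acinar sum, of 12 cells, was the highest of the acinar libraries for Snap25, Syt13 and Cplx2 and the lowest for Rab3d (208 CPM) and Vamp8 (112 CPM). It held 33979 CPM of Ins1 and Ins2 and 47485 of acinar enzymes, and the part of carried-over beta-cell RNA in these values was not tested. Among 70 tested genes of a list of exocytosis partners (active zone, docking, exocyst, vesicle membrane and other SNARE genes), 33 were higher and 22 lower in endocrine cells (78.6%, where 66.5% of all genes were called). The largest were the liprin Ppfia2 (3.40), the vesicle proteins Syn1 (3.38), Synpr (3.35) and Sv2b (2.97), and the active zone protein Bsn (2.93). On the acinar side stood Rims4 (-7.22), Ppfia4 (-5.42), the Rab27 effectors Mlph (-4.31) and Myrip (-3.73), and Sv2c (-2.28).

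**Figure D1:**
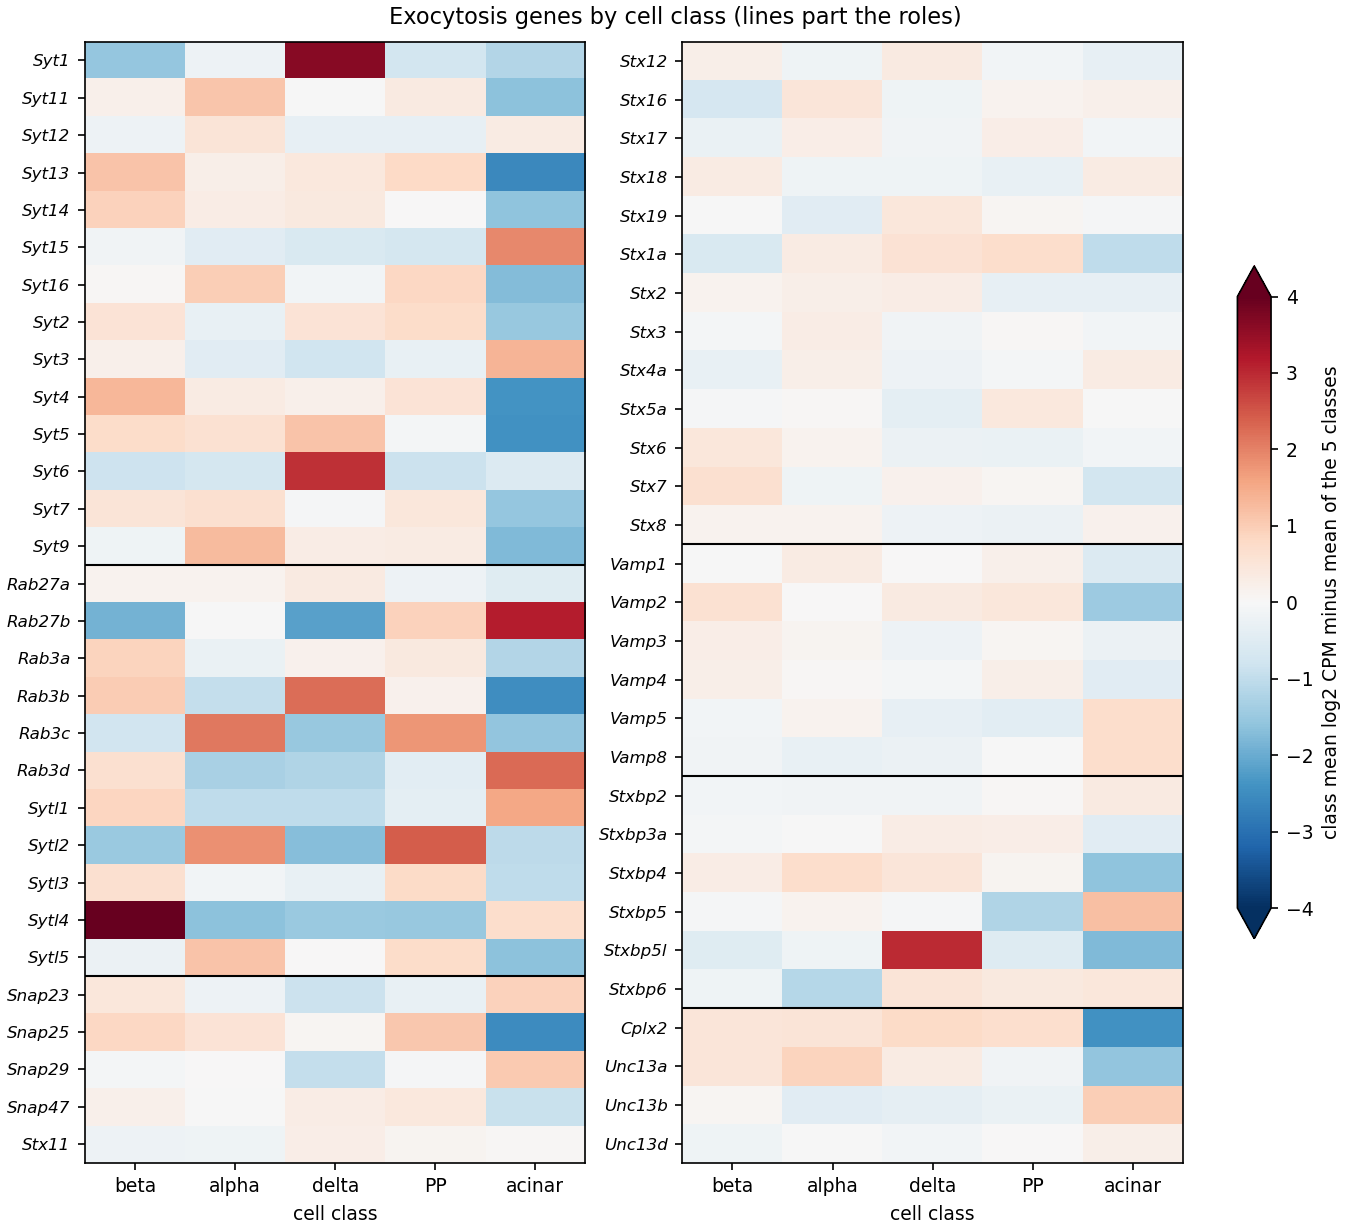
Each cell is the mean log2 CPM of 1 member in 1 class (beta 15, alpha 13, delta 11, PP 7 and acinar 12 libraries) minus its mean over the 5 classes, in red where above and blue where below, and black lines part the roles in the order synaptotagmins, tethering, target membrane SNAREs, vesicle SNAREs, syntaxin binders and priming. In the tethering block Sytl4 is deep red in beta cells, Rab27b and Rab3d are red in acinar cells, and Syt13, Snap25 and Cplx2 are blue in acinar cells.

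The next comparisons set beta cells beside the other islet classes, within the same libraries. Between beta and alpha cells, the Rab and Rab effector genes that tether granules had the largest share of calls among the 6 roles. Over 11 libraries, 14 of 55 tested members were higher in beta cells and 8 lower (40%) by edgeR's quasi-likelihood test, where 27.0% of all genes differed (14.3% higher, 12.7% lower). The tethering group gave 9 calls among its 11 genes, 5 higher and 4 lower, the synaptotagmins 5 of 12, and the priming genes none of 4. With Control and postnatal libraries alone (3 with alpha cells), 7 of the 22 kept their call, Rab3b, Rab3c, Rab3d, Stx16, Sytl2, Sytl4 and Sytl5. Calls over all genes fell as well, to 506 higher and 322 lower of 13423 tested. Without cells that held other classes' hormones, Snap23, Stx18, Stx1a, Syt4, Syt9, Sytl5 and Vamp2 were not called, and over all genes 914 were higher and 614 lower of 10524.

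Sytl4, granuphilin, was at 13506 UMIs in beta cells, 193 per 1000000 (95% Poisson interval 189 to 196), against 58 UMIs or 1.91 per 1000000 (1.45 to 2.47) in alpha, 2.59 in delta, 2.15 in PP and 5.13 in acinar cells. After each cell was thinned to 30000 UMIs, 79.8% of beta cells had a Sytl4 UMI, and 4.87% of alpha, 3.9% of delta, 6.61% of PP and 5.82% of acinar cells did. Without thinning the beta and alpha shares were 84.5% and 8.14%, at median depths of 61213 and 44299 UMIs per cell. The thinned shares outside beta cells were low, though by library those of alpha cells ran from 0 to 20%. Without thinning, 20.1% of acinar cells had a Sytl4 UMI. Whether these are carried-over RNA or expression was not tested. The difference from alpha cells was 5.70 ± 0.42 (52.1-fold, adjusted p = 3.25e-16), from delta cells 5.25 ± 0.48 and from PP cells 5.10 ± 0.60 (34.2-fold), all by edgeR's quasi-likelihood test.

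The synaptotagmin-like family split by class. Sytl2, a Rab27 effector of glucagon granules, had 336 UMIs in alpha cells (11.1 per 1000000, 9.92 to 12.3) and 86 in PP cells (11.5, 9.23 to 14.3), but 17 in beta cells (0.242, 0.141 to 0.388) and none in delta cells, where 3 counts would be 0.299 per 1000000. Its thinned share was 13.7% of alpha and 18.2% of PP cells against 0.435% of beta cells. The fitted difference of beta from alpha cells was -6.13 ± 0.71 (adjusted p = 2.57e-09, edgeR's quasi-likelihood test). Sytl1 went the other way, higher in beta than in alpha cells by 1.97 ± 0.29, than in delta cells by 1.65 ± 0.33 and than in PP cells by 1.19 ± 0.38. Sytl5 was lower in beta than in alpha cells by -1.36 ± 0.25 and than in PP cells by -0.96 ± 0.32.

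The 4 Rab3 genes, which act on docked granules, were not all highest in the same islet class. Rab3b was highest in delta cells, at 114, 250 and 331 CPM (lowest, median and highest library), then in beta cells at 44.8, 101 and 190 and in PP cells at 33.3, 52.4 and 76.6, and lower in alpha cells at 10.1, 26.6 and 57.5. Neighbouring classes overlapped in this order, and beta cells differed from alpha cells by 2.06 ± 0.21, from PP cells by 1.02 ± 0.27 and from delta cells by -1.19 ± 0.21. Rab3c was highest in alpha (28.7, 36.9 and 71.4 CPM) and PP cells (13.0, 37.0 and 56.0), whose ranges overlapped, and low in beta (0.24, 5.54 and 33.5) and delta cells (0, 2.29 and 15.7). Beta cells were lower in Rab3c than alpha cells by -2.63 ± 0.32 (6.19-fold, adjusted p = 2.03e-09, edgeR's quasi-likelihood test) and than PP cells by -2.11 ± 0.39. After thinning, 6.85% of beta, 47.8% of alpha, 7.14% of delta and 36.4% of PP cells had a Rab3c UMI.

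Rab3d was higher in beta cells than in the other islet classes, by 1.90 ± 0.16 over alpha, 1.76 ± 0.18 over delta and 1.02 ± 0.21 over PP cells. Its alpha libraries spanned 18.9 to 40.9 CPM, below all beta libraries. Rab3a, the neuronal Rab3, was higher than in alpha by 0.98 ± 0.15 and than in delta cells by 0.47 ± 0.16. Rab27a, the Rab27 of islet granules, was not called between beta and alpha cells (68.7 and 67.8 CPM at the median). Rab27b was lower in beta than in PP cells by -3.21 ± 0.53 (9.24-fold, adjusted p = 7.98e-06) and than in alpha cells by -2.17 ± 0.44 (adjusted p = 0.000106, both edgeR's quasi-likelihood test), but with classes set by each cell's dominant hormone the alpha difference was -0.79 and not called.

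**Figure D2:**
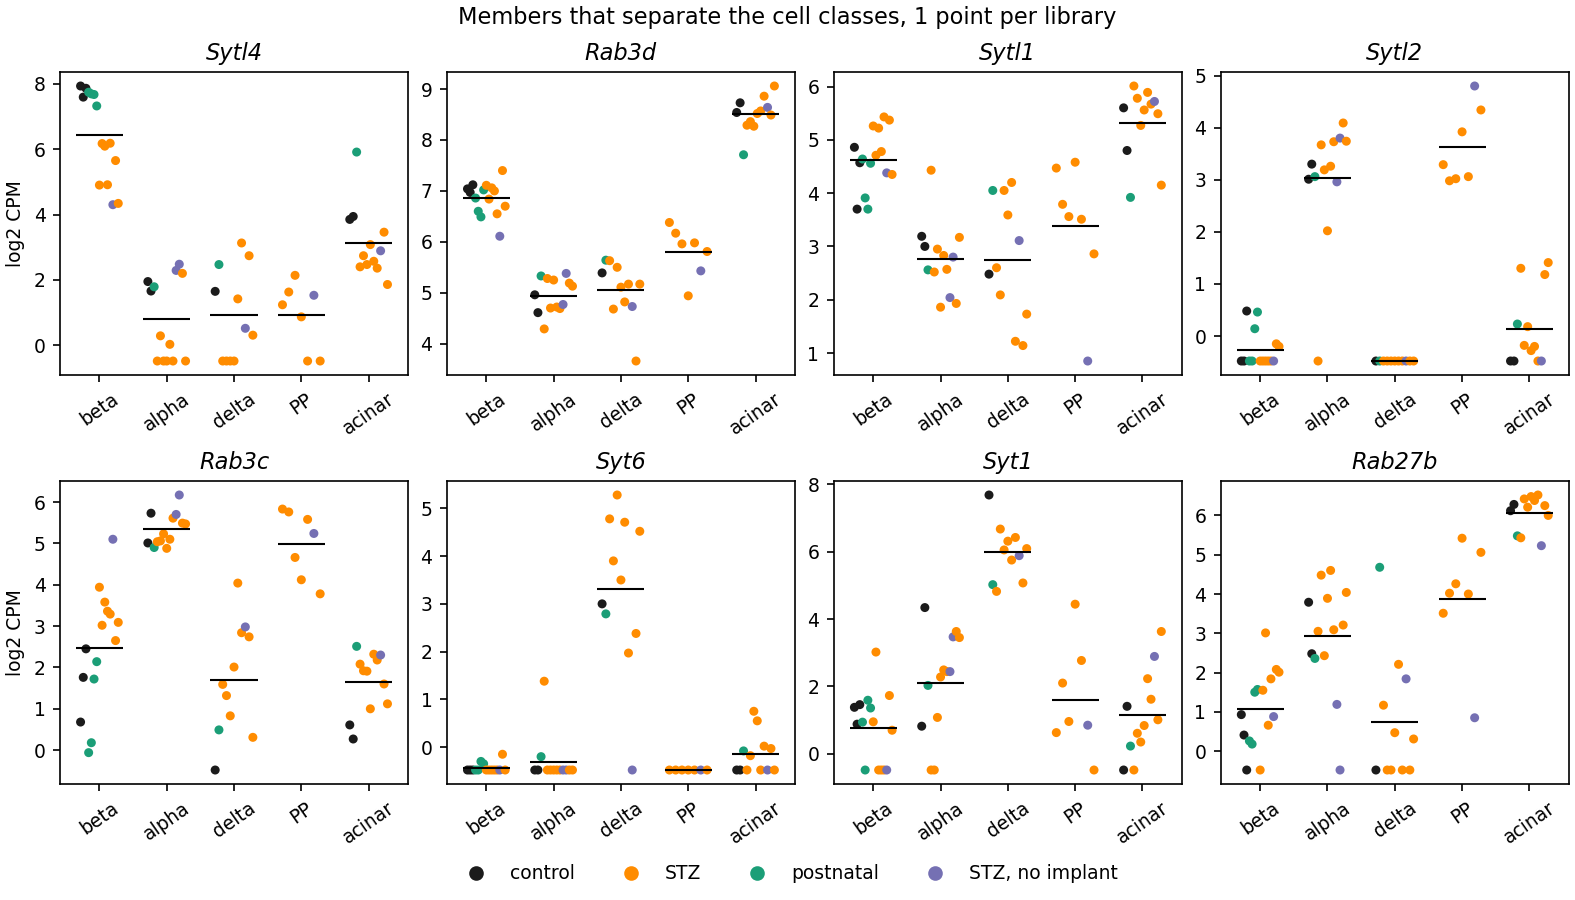
Log2 CPM (vertical axis, log scale) of 8 members in 5 classes, 1 point per library with at least 10 cells of the class, coloured by control, STZ, postnatal and STZ without implant, with a bar at the class mean. Sytl4 is high in beta cells with the STZ points below the control points, Sytl2 and Rab3c are high in alpha and PP cells, Syt6 and Syt1 in delta cells, and Rab3d and Rab27b in acinar cells.

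Among synaptotagmins, beta cells were higher than alpha cells in Syt4 (1.09 ± 0.23), a synaptotagmin tied to beta-cell maturation, Syt3 (1.05 ± 0.39) and Syt13 (0.75 ± 0.18), and lower in Syt9 (-1.66 ± 0.45) and Syt11 (-0.98 ± 0.20). Syt11, which lacks calcium binding, had 30.8, 57.7 and 79.6 CPM in alpha and 15.6, 29.3 and 40.9 in beta libraries, so the ranges overlapped at their ends. Of SNAREs, Stx7, Snap23, Stx18, Vamp2 and Stx12 were higher in beta cells by 0.79, 0.74, 0.63, 0.52 and 0.47, and Stx1a and Stx16 lower by -1.30 ± 0.35 and -1.14 ± 0.21. Stxbp6 (amisyn), which competes for the SNARE complex, was higher by 1.16 ± 0.22. Snap25 and Cplx2 were not called, with medians of 161 and 127 CPM and of 271 and 259 CPM in beta and alpha cells.

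Besides Rab3b, delta cells had the highest class medians of several members, among them Syt1, Stxbp5l and Syt6. Syt1, the fast calcium sensor of neurons, had 27.5, 65.6 and 204 CPM in 11 delta libraries and 0, 1.20 and 7.39 in beta libraries. The ranges did not meet, and beta cells were lower by -5.18 ± 0.58 (36.3-fold, adjusted p = 5.05e-10, edgeR's quasi-likelihood test). Stxbp5l (tomosyn-2), an inhibitor of SNARE assembly, had 40.2, 102 and 165 CPM in delta and 0.902, 7.32 and 33.9 in beta libraries. Again the ranges did not meet, and the difference was -3.84 ± 0.40 (14.3-fold, adjusted p = 6.95e-11).

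Syt6, whose promoter is printed above, had 170 UMIs in delta cells (16.9 per 1000000, 14.5 to 19.7), 3 in beta cells (0.0428, 0.00883 to 0.125), 2 in alpha cells and none in PP cells, where 3 counts would be 0.403 per 1000000. After thinning, 14.9% of delta cells, 0.221% of alpha cells and no beta cell had a Syt6 UMI. Of the 66 cells of all classes with a Syt6 UMI, 49 were delta cells, and without these Syt6 would have missed the 1% limit. Its place among the members thus rests on the class where it is high, and its difference from delta cells is no separate support. It was listed at 0 in the delta cells of the first P12 and first STZ_M2_NoIns libraries and at 3.21 to 38.1 CPM in the others. In all, 9 of 55 members were higher in beta than in delta cells and 6 lower over 9 libraries (27.3%), where 21.2% of all genes differed (12% higher, 9.17% lower) by edgeR's quasi-likelihood test. The higher ones were Sytl4, Rab3d, Sytl1, Rab3a, Syt4 (1.15), Snap23 (0.95), Snap25 (0.62), Syt13 (0.54) and Syt7 (0.53), and Stx1a (-1.60) and Stxbp3a (-0.51) completed the lower ones. In thinned cells Rab3a, Snap23, Stx1a, Stxbp3a, Syt13, Syt6 and Syt7 were not called, and over all genes 830 were higher and 633 lower of 9388. Rab3b was no longer called from delta cells (-0.38) where clusters were split from 600 cells up, a setting that left ductal cells and cells led by Ghrl among the delta cells. With library totals without hormones the share of all calls that were higher went from 56.7% to 45.6%.

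Beta and PP cells were both present with at least 10 cells in 5 libraries, all after STZ with implants and none control or postnatal. The fit also drew on PP sums of STZ_M2 and the first STZ_M2_NoIns library. Beta sums of other libraries, control and postnatal ones included, entered it too. Its values can thus depart from those 5 libraries, where Sytl5 had a mean log2 CPM of 4.28 in beta and 4.51 in PP cells. In this comparison 7 members were higher in beta cells and 6 lower of 55 (23.6%) by edgeR's quasi-likelihood test. Of all genes, 13.8% differed (8.70% higher, 5.12% lower). Beside those given above, Syt4 (0.96), Stx18 (0.95) and Stx7 (0.53) were higher, and Sytl2 (-6.52), Stx1a (-1.60) and Stx5a (-0.45) lower. Sytl4 and Rab3d kept their call from PP cells in every alternative run for this comparison, as did Sytl2 except in thinned cells, where it was not tested, and each of the other 10 members called lost it in at least 1. In the main fit Stx1a was thus lower in beta than in alpha, delta and PP cells, each by test, at 7.21 CPM in the median beta library against 14.0, 16.6 and 14.3. Each of these Stx1a calls was lost in at least 1 alternative.

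Of 70 tested partner genes, 18 were higher and 4 lower than in alpha cells (31.4%, against 27.0% of all genes), 17 and 6 than in delta cells (32.9% against 21.2%), and 13 and 2 than in PP cells (21.4% against 13.8%). Rims3, an active zone protein of the RIM family, was higher by 4.06, 3.64 and 4.35 in the 3 comparisons. Erc2 and Pclo, active zone scaffolds, were higher than in alpha cells by 2.25 and 2.24, and Synpr and Syp, vesicle membrane proteins, by 1.82 and 1.57. Sv2c, Sv2b, Cadps and Mlph exceeded delta cells by 6.65, 3.87, 3.55 and 3.48, and Vti1a and Madd exceeded PP cells by 2.43 and 1.76. Exoc6, of the exocyst, was lower in beta than in alpha, delta and PP cells (-1.04, -1.40 and -1.86), as was Ppfia2 against alpha (-1.81) and delta cells (-3.86).

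The central comparison of the study is beta cells after STZ with insulin implants against beta cells of controls, 8 libraries against 3. Sytl4 fell, and no other member passed the test: 1 of 51 tested members was called (1.96%), where 2.90% of all genes were (1.72% higher and 1.18% lower), by edgeR's quasi-likelihood test with Benjamini-Hochberg adjustment. The median difference of the members was 0.06, against 0.00 for all genes. At an unadjusted p under 0.05 there were 9 members.

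Sytl4 had 243, 191 and 232 CPM in beta cells of the 3 Control libraries. After STZ it had 71.8 in STZ_D6, 29.2 and 71.3 in STZ_D12, 67.2 in STZ_D30, 29.4 in STZ_D42, 71.9 in STZ_M2, 49.3 in STZ_M5 and 19.6 in STZ_M9. All 8 STZ libraries lay below all 3 controls, the earliest time point included, and the last one, STZ_M9, was the lowest. Sytl4 fell by 2.14 ± 0.29 on the log2 scale (4.39-fold, adjusted p = 0.000252, edgeR's quasi-likelihood test), from a mean log2 CPM of 7.79 ± 0.18 (SD, n = 3) to 5.55 ± 0.73 (SD, n = 8). The STZ_M2 value rests on 8 cells and 32 UMIs, and those of the first STZ_D12 library and STZ_D42 on 24 and 34 UMIs.

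The share of beta cells with a Sytl4 UMI, in cells thinned to 30000 UMIs, was 93.2%, 89.2% and 100% in the controls. It was 46.4% in STZ_D6, 36.4% and 46.7% in STZ_D12, 66.7% in STZ_D30, 47.4% in STZ_D42, 50% in STZ_M2, 53.3% in STZ_M5 and 30.9% in STZ_M9. Unthinned shares were 93.5% to 100% in controls and 37.5% to 78.6% after STZ. Thinned shares of alpha cells in the same libraries ran from 0 to 20%, below every beta share with an implant.

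Summed markers of other classes were also set beside these values in the beta cells, and their part in the Sytl4 result was not tested beyond the fit given last. The 5 PP markers summed to 2736 to 5538 CPM in controls and 9107 to 33863 after STZ, the 5 delta markers to 263 to 1240 and 722 to 8957, the 8 alpha markers to 4606 to 9569 and 2237 to 12386, the 12 acinar markers to 8358 to 27658 and 16345 to 30018, and the 8 immune markers to 19.6 to 34.2 and 2.85 to 111, with Amy2a5 and Ptprc at 0 in controls. Ins1 and Ins2 together had 185381 to 191204 CPM in controls and 77179 to 184311 after STZ. Without the cells that held other classes' hormones, Sytl4 stood at -1.80 ± 0.33 (adjusted p = 0.00377, edgeR's quasi-likelihood test). A prefix of the raw file names, taken here as the run, was given for 10 of 17 libraries, and not for the second STZ_D12 library. Among STZ libraries that had it, 3 (STZ_D6, STZ_D30 and STZ_M2) shared a run with a control. Against that 1 control the Sytl4 difference was -1.45 and no longer called.

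Of the other tethering genes, Rab3b had 77.1, 79.6 and 44.8 CPM in controls and 79.9 in STZ_D6, 129 and 133 in STZ_D12, 111 in STZ_D30, 137 in STZ_D42, 211 in STZ_M2, 98.5 in STZ_M5 and 164 in STZ_M9. The 2 groups did not overlap, though STZ_D6 lay next to the highest control, and the difference of 0.94 ± 0.26 missed the threshold (adjusted p = 0.0554). In all, 6 of 51 members had groups that did not overlap, 3 above and 3 below control, where 4.93% of all genes did (2.30% above, 2.63% below). Rab3c had 0.878, 2.66 and 4.75 CPM in controls and from 0 in STZ_M2 to 14.6 in the first STZ_D12 library, with a difference of 1.78 ± 0.66 (adjusted p = 0.203) and groups that overlapped. Rab3a (-0.37 ± 0.23), Rab3d (-0.16 ± 0.21), Rab27a (0.06) and the other 3 tested genes of this group were not called.

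Among synaptotagmins none of 10 was called. Syt5, a synaptotagmin of dense-core granules, had 35.2, 37.0 and 35.3 CPM in controls and 40.9 to 83.3 after STZ, the highest in STZ_M5, and its difference was 0.79 ± 0.22 (adjusted p = 0.0659, edgeR's quasi-likelihood test). Syt16, named after its values were seen, had 4.07, 2.25 and 2.04 CPM in controls, 12.9 to 18.5 at 12 to 42 days and 4.76 to 8.99 in STZ_D6, STZ_M2, STZ_M5 and STZ_M9 (difference 1.90 ± 0.56, adjusted p = 0.0797). Syt13 had 576, 480 and 540 CPM in controls and 357 to 462 after STZ (-0.38 ± 0.14, adjusted p = 0.193). In these 3 genes the groups did not overlap, with Syt13 the one lower after STZ. Syt4 (0.08), Syt7 (0.11), Syt9, Syt11 and Syt3 had groups that overlapped.

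The SNARE core showed no called member. Stx1a had 7.21, 4.60 and 4.07 CPM in controls and 3.33 to 11.2 after STZ (0.15 ± 0.50). Snap25 had 110, 140 and 165 CPM and 121 to 216 (0.32 ± 0.19). Vamp2 had 100, 95.0 and 89.6 CPM and 70.4 to 105 (-0.10 ± 0.17). For each of these 3 genes the groups overlapped. Vamp8 (-0.09 ± 0.18), Vamp3 (-0.08 ± 0.28) and the late endosomal and Golgi SNAREs Vamp4 (-0.44 ± 0.22) and Stx6 (-0.49 ± 0.24), of which the last 2 were picked after their values were seen, were not called either.

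No syntaxin binder or priming gene was called by edgeR's quasi-likelihood test. Stxbp2 had a difference of -0.48 ± 0.25, Cplx2 of 0.28, Unc13a of 0.08 and Unc13b of 0.13. DESeq2 called 6 members, 4 above control (Rab3b, Rab3c, Syt5 and Syt16) and 2 below, Sytl4 among them. Over all genes it also called more than edgeR did, 398 above and 185 below control of 13269 tested. Of 64 tested partner genes, 2 fell and none rose by edgeR's quasi-likelihood test (3.12%), near the 2.90% of all genes that were called. They were Madd, which loads Rab3 and Rab27 with GTP, by 0.76 ± 0.17 (adjusted p = 0.0142), and Rims3 by 1.58 ± 0.39 (adjusted p = 0.0272), on the log2 scale.

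**Figure D3:**
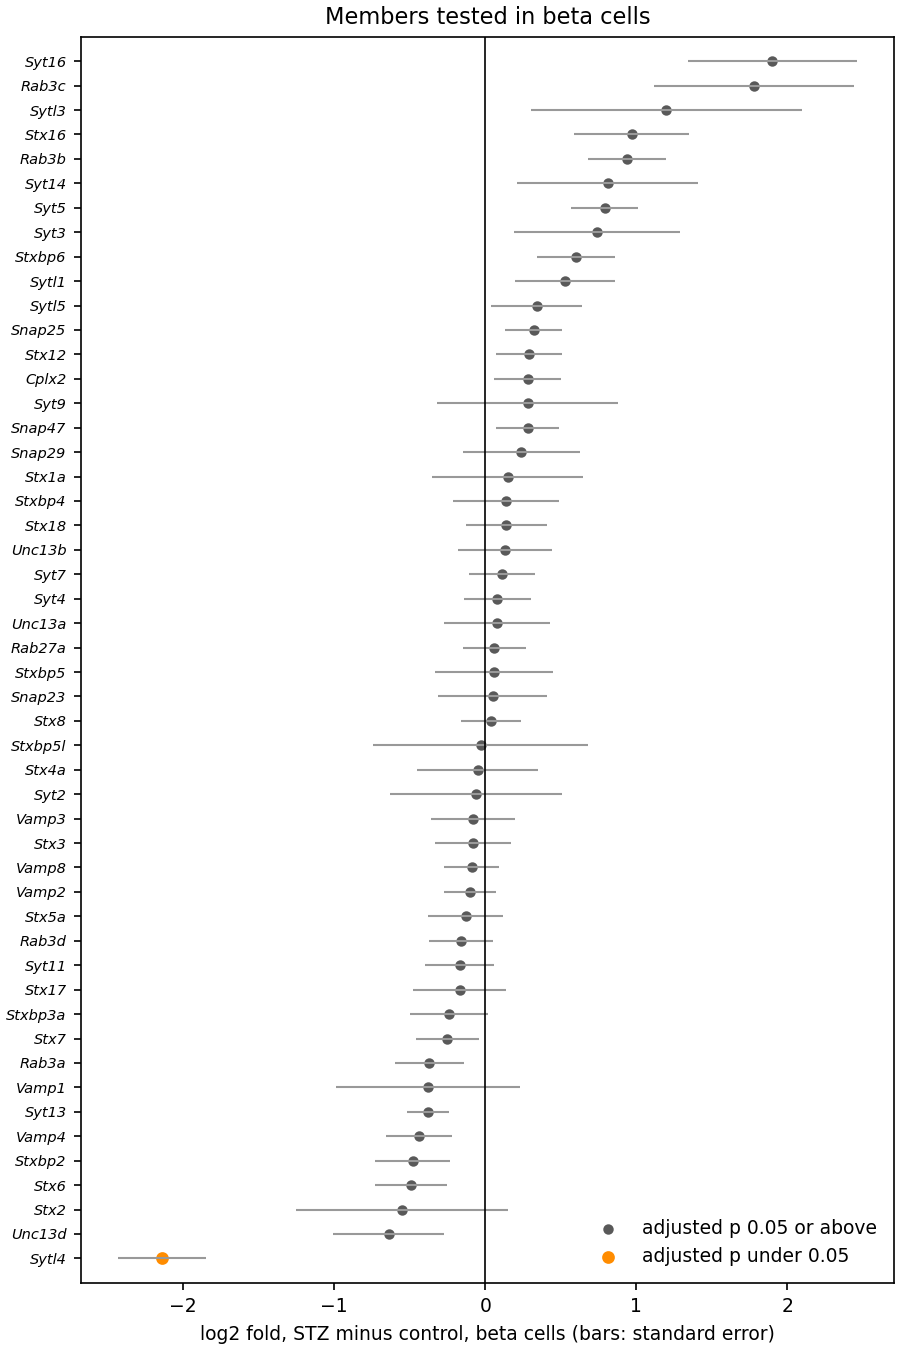
Log2 difference of STZ minus control beta cells (horizontal axis) for tested members, with bars of 1 standard error. Sytl4, at -2.14 and in orange, is the single member past the threshold, and Rab3b, at 0.94, and Syt5, at 0.79, missed it.

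The postnatal libraries ask whether these genes still differ from adult levels while beta cells mature. The 4 postnatal libraries were set against the same 3 controls as the STZ libraries, so both comparisons share those values. None of 56 tested members was called, where 0.502% of all genes were, and 7 members had an unadjusted p under 0.05. DESeq2 called 2, Stxbp5l and Syt4, and over all genes 156 above and 161 below control of 13159 tested. In 8 of 56 members the groups did not overlap, 4 above and 4 below control, where 11.9% of all genes did (5.51% above, 6.39% below).

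For Syt4, P3 had 25.8 CPM, the P12 libraries 80.5 and 64.7, and P21 79.1, against 99.9, 149 and 192 in controls. All pups lay below all controls, P3 lowest, and the difference was -1.22 ± 0.33 (adjusted p = 0.128, edgeR's quasi-likelihood test). For Stxbp5l, P3 had 19.4 CPM, the P12 libraries 26.3 and 33.9, and P21 19.3, against 11.7, 9.61 and 2.72 in controls (1.48 ± 0.39, adjusted p = 0.118). Here all pups lay above all controls. Stx1a (0.81 ± 0.40), Cplx2 (0.33 ± 0.18) and Rab27a (0.30 ± 0.18) were also above without overlap, and Stx17 (-0.82), Stx18 (-0.71) and Vamp4 (-0.53), 3 genes picked for that, below.

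Sytl4 stood at 159 CPM in P3 cells, at 214 and 206 in both P12 libraries and at 203 in P21, and differed from control by -0.18 ± 0.19 (adjusted p = 0.766, edgeR's quasi-likelihood test). P12 and P21 lay inside the control range, P3 below it, and all 4 above every STZ library. Nearly all P3 beta cells came from the separate cluster of 132 cells. Thinned shares of beta cells with a Sytl4 UMI ran from 91.8% to 94.8% over the 4 postnatal libraries. None of 70 partner genes was called, where 0.502% of all genes were. With library totals without hormones the median of all genes in this comparison went from 0.03 to 0.17 and the share of calls that were higher from 23.8% to 44.2%.

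**Figure D4:**
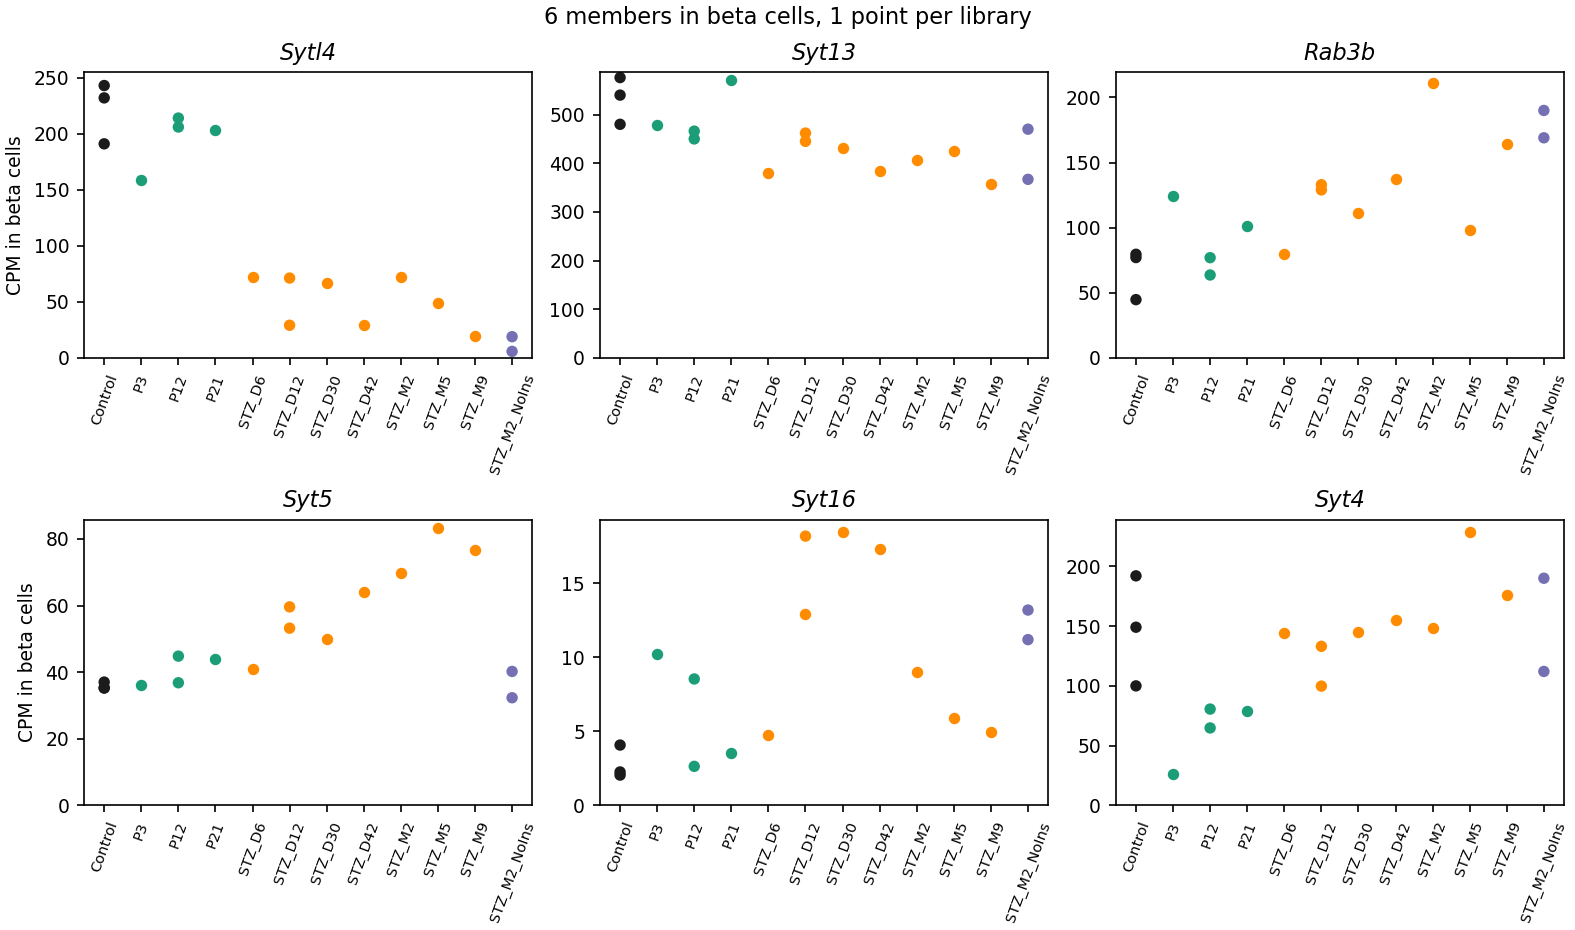
CPM (vertical axis, from 0) in beta cells of Sytl4, Syt13, Rab3b, Syt5, Syt16 and Syt4 by group, 1 point per library with at least 5 beta cells, black for control, green for postnatal, orange for STZ and violet for STZ without implant. Sytl4 is 159 or more in all control and postnatal libraries and 71.9 or less in all STZ libraries, and Syt4 is lowest in P3 at 25.8.

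In alpha cells, 8 STZ libraries were set against 2 controls. None of 53 tested members was called by edgeR's quasi-likelihood test, and none of all genes was (0%, with 544 genes at an unadjusted p under 0.05, and 2 called by DESeq2). Of the members, 2 had an unadjusted p under 0.05, Stx2 at -1.66 ± 0.72 and Unc13d at -0.73 ± 0.33, and DESeq2 called none. Their median difference was -0.04 against 0.03 for all genes. Rab3c, high in this class, had 31.5 and 52.3 CPM in controls and 28.7 to 48.0 after STZ (-0.13 ± 0.29), groups that overlapped. Sytl2 (0.24 ± 0.68), Syt13 (-0.17 ± 0.21), Snap25 (-0.13 ± 0.24), Cplx2 (-0.01 ± 0.23), Vamp2 (-0.16 ± 0.27) and Vamp8 (0.23 ± 0.26) were not called. In 2 of 53 members, Stxbp3a and Stxbp5l, all STZ libraries lay below both controls. Of all genes, 4.32% had groups that did not overlap (2.08% above, 2.24% below).

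Whether STZ moved a member differently in beta and alpha cells was tested within libraries, as the beta minus alpha difference in 7 STZ against 2 control libraries. Rab3c was called, 1 of 55 members (1.82%), where 0.372% of all genes were. Its beta minus alpha difference was -4.15 ± 0.26 (SD, n = 2) in controls and -1.91 ± 0.58 (SD, n = 7) after STZ, so that the 2 classes lay closer, by 2.57 ± 0.51 (adjusted p = 0.0305, edgeR's quasi-likelihood test), in 7 of 7 STZ libraries. STZ_M2, with 8 beta cells, was left out of this test, and there Rab3c had 0 UMIs in beta cells and 48.0 CPM in alpha cells, with a UMI in 19 of 44 alpha cells. Ppy and Pyy, hormones of PP cells, the other class high in Rab3c, summed to 2696 to 5474 CPM in control beta cells and to 8817 to 33398 after STZ, and the part of PP-cell RNA in the result was not tested. The call was lost in thinned cells (2.67, adjusted p = 0.074), with classes by dominant hormone (2.32, 0.0874), and without Control 1 (2.16, 0.735), Control 2 (3.00, 0.159), STZ_D30 (2.52, 0.0627) or STZ_D42 (2.51, 0.0538). Sytl4 was not called here (0.36 ± 0.75, adjusted p = 0.979), with 3.15 and 2.43 CPM in control alpha cells and 0 to 3.88 after STZ. Beside these, Ins1 and Ins2 in alpha sums were at 25375 and 15925 CPM in controls and 797 to 25150 after STZ, and the part of beta-cell RNA was not tested. Rab3b (1.06 ± 0.36, adjusted p = 0.373) and Snap25 (0.60 ± 0.24, adjusted p = 0.518) were not called.

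The STZ_M2_NoIns libraries held 5 and 11 beta cells and entered no comparison of STZ with control. Sytl4 was at 5.88 and 19.0 CPM there, from 4 and 17 UMIs, below every STZ library with an implant, though the second lay close to STZ_M9. Thinned shares of beta cells with a Sytl4 UMI were 0% and 40%. The 40% lay above the 30.9% of STZ_M9 and the 36.4% of the first STZ_D12 library. Rab3b had 169 and 190 CPM, Rab3c 17.6 and 33.5, and Syt5 32.3 and 40.2. Rab3b lay within the range of the libraries with implants, Rab3c above it, and Syt5 beside the controls. Of these beta cells 80% and 81.8% held other classes' hormones, and Ins1 and Ins2 made up 57366 and 65239 CPM.

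Among the members, exons of Rab3a, Snap29, Snap47, Stx18, Syt6, Sytl3 and Unc13a, among others, share bases with a gene on the other strand (Mpv17l2, Pi4ka, Jmjd4, Nsg1, Atg4a-ps, Ezr and Colgalt1), and reads of the 2 strands may not have been told apart, since the strand setting is not given in the sources used here. On mm10, Sytl4 is a protein-coding gene at X:133936385-133981812 (minus strand), Rab3d at 9:21907491-21918192 (minus), Rab3c at 13:110054187-110280996 (minus), Rab3b at 4:108879063-108943324 (plus), Syt1 at 10:108497650-109010982 (minus) and Stxbp5l at 16:37114942-37384962 (minus).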

How the data were processed

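Single-cell mSTRT-seq libraries were deposited as 1 table of UMI counts per gene and cell, whole numbers that the authors did not normalize. The tools named per the submitters' processing notes, with no order, are UMI-tools 0.5.0, SAMtools 1.3.1, featureCounts 1.5.3 and TopHat2 2.1.0, and the build is mm10. Per the labels' protocols, cells were moved by mouth pipette and amplified by PCR. UMIs collapse PCR copies, and Poisson intervals cover counting error only.

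Groups came from the labels. The 6 rows without a symbol were left out of the tests. Cells were clustered on 300 variable genes without the members and hormones (15 principal components, 20 neighbours, leidenalg 0.10.2, resolutions 0.03 and 0.1), and clusters were named from marker lists where the best list led by 0.5. Clusters of 400 or more cells were split again. The planned 600 left ductal cells among delta cells, and the change was made after seeing this. All deposited cells entered, and no doublet caller was run. Cells with over 1000 of 100000 UMIs from other classes' hormones were left out in an alternative.

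UMI counts were summed per class and library, for class comparisons where at least 10 cells were present, and the STZ comparison of beta cells also used STZ_M2 with 8. Sums were tested with edgeR 4.0.16 (R 4.3.3): filterByExpr, trimmed mean of M-values, quasi-likelihood F test and Benjamini-Hochberg adjustment over all tested genes, with a threshold of 0.05. Comparisons of classes came from 1 fit over all groups with the library as a block. Log2 CPM used a prior count of 2. Standard errors are the log2 difference over the square root of F. On counts simulated for beta cells of STZ against control (10745 genes), 31.1% of genes changed by a log2 of 1 and 85.6% of those changed by 2 were recovered, with 2 false calls of 112. Single comparisons thus miss many changes of 1 or less.

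Named are, in each comparison, called members (up to 10 of the largest in each direction), members from a fixed list whether called or not, and the 5 largest called partners in each direction. Names outside this are marked in the text. The members and lists were chosen with earlier results of these data known. Alternatives were DESeq2 1.42.0, other scalings and filters, thinning of cells to 30000 UMIs, other class rules and cell minimums, shared runs, a replicate block and leaving out libraries. Promoters came from RefSeq (GRCm38.p6). Proteins were not used here. Some genes of these families enter the counts and are not reported here by name.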

Additional observations from a re-analysis of the deposited data

Results flagged for a closer look

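In 88 sets of 4 to 8 libraries tested for a value far from the rest, 8 values stood apart, and chance flags about 1 in 20. In beta cells of STZ_M2, which rest on 8 cells, Rab3c and Syt9 had a log2 CPM of -0.48, the value of 0 UMIs, and Stxbp2 and Vamp3 had 4.04 each, all the lowest of 8 STZ libraries. Sytl4 in beta cells of P3 was at 7.32, the lowest of the 4 postnatal libraries. In alpha cells, Sytl2 at -0.48 and Unc13a at 2.17 in the first STZ_D12 library, and Syt11 at 4.99 in the second, were the lowest of 8 STZ libraries.

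The STZ difference of Rab3c was larger in beta than in alpha cells by a log2 of 2.57, tested within libraries. This call rested on 2 control libraries and was lost in thinned cells and with classes by dominant hormone. In beta cells alone the STZ difference of Rab3c was not called (1.78 ± 0.66, adjusted p = 0.203, edgeR's quasi-likelihood test).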

How the results depend on the processing

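The call of Sytl4 in beta cells after STZ held in 21 of 22 alternatives. The number of members called there was 1 and became 6 with DESeq2, 3 without the low-count filter and with classes by dominant hormone, 2 in thinned cells, with totals without hormones and with at least 20 cells, 4 with each time point weighted equally, 0 among libraries sharing a run with a control, and 1 to 3 when libraries were left out in turn. Postnatal calls went from 0 to 2 with DESeq2 and 3 without the filter, and stayed at 0 when a library was left out. The difference between beta and alpha cells after STZ had 1 call, 0 in thinned cells and with classes by dominant hormone, and 0 to 1 when a library was left out. Beta against alpha cells gave 22 calls and 7 with control and postnatal libraries alone. Beta against delta cells gave 15 calls, 8 in thinned cells, 4 with control and postnatal libraries and 26 with clusters split from 600 cells. Beta against PP cells gave 13 calls, 8 in thinned cells and by dominant hormone, 7 without mixed cells and 6 with at least 20 cells. Endocrine against acinar cells gave 44 (36 to 47).

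With totals without hormones, these members turned from lower to higher in endocrine against acinar cells: Snap23 to 0.64, Snap29 to 0.32, Stx18 to 1.28, Stx8 to 1.37, Stxbp2 to 1.21, Stxbp5 to 0.23, Stxbp6 to 1.19, Sytl4 to 0.59, Unc13b to 0.41 and Vamp8 to 0.75. That setting leaves hormones out of endocrine totals and keeps enzymes in acinar totals.

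Over all genes, 312 were called after STZ in beta cells (19 to 583 over the alternatives, 134 without Control 1, 149 without Control 2 and 156 without Control 3), 63 in pups (0 to 560), 45 in the beta against alpha difference (2 to 185), 3172 for beta against alpha (828 to 3581), 2483 against delta (378 to 3686), 1621 against PP (578 to 1913), 7802 for endocrine against acinar (5925 to 10212) and 0 in alpha cells after STZ (0 to 6). Causes were not tested.

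Replicate numbers are the labels' batch numbers. Deviations of same-numbered libraries correlated at -0.08 to 0.12 over 10745 genes, and those of differently numbered ones at -0.12 to 0.08. In groups of 2 libraries the deviations mirror each other, so these values cannot decide whether same-numbered libraries shared a batch. With the replicate block, 1 member was called after STZ in beta cells (Sytl4, -2.04 ± 0.36, adjusted p = 0.0108 by edgeR's quasi-likelihood test), 0 in pups and 0 in alpha cells, and all-gene calls were 90, 0 and 0. Not run for lack of enough libraries were fits without mixed cells for alpha cells after STZ, the beta against alpha difference, delta and acinar cells, fits on control and postnatal libraries alone for PP and acinar cells, and the block for the beta against alpha difference.

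In libraries with few beta cells depth is the limit: Rab3c had 0 UMIs in the 8 cells of STZ_M2, and Sytl4 had 4 in the first STZ_M2_NoIns library.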
